A study of Perna viridis with 2 samples.

Results

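The genes examined were inhibitors of apoptosis, caspases and related cell death genes in the mantle of the green mussel Perna viridis. They were found by product name, which had to hold inhibitor of apoptosis, baculoviral IAP, caspase, apoptosis, programmed cell death or Bcl-2, or begin with the symbol BIRC, CASP, BCL2, BAX, BAK or PDCD. This rule found 116 of 78458 assembled genes, and it used names only, no expression values. The regions compared were the periostracal groove, between the outer and middle folds of the mantle, and the submarginal zone, bounded by the folds and the pallial line. Both groups were untreated whole mantle tissue of unknown genotype, holding all cell types. Each sample pooled tissue of 6 animals whose shells were 6 to 7 cm long. Although the design text speaks of 3 biological replicates, each region had 1 deposited profile in TPM (a per-length unit scaled to the same total in each profile). No difference below therefore has a replicate check, and no p-value is given. The value columns of both tables are headed with the groove sample's name, and each table was taken for the region of the record that lists it. An exchange of the tables would turn every direction given here.

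Caspases are proteases that carry out apoptosis. Initiator caspases such as caspase 8 and caspase 2 are activated first, at death receptors or in cytoplasmic complexes, and they switch on executioner caspases, which cut cellular proteins. Inhibitors of apoptosis, which carry baculoviral IAP repeats (BIR domains), hold caspases in check or act as ubiquitin ligases in survival and immune signalling. Bcl-2 family proteins control the release of mitochondrial proteins that start the caspase cascade. Bivalve genomes are known for large expanded families of inhibitors of apoptosis and caspases.

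With TPM as deposited, the apoptosis genes had nearly the same summed level in both regions, with 963 TPM in groove tissue and 966 TPM in the submarginal zone. This was 0.0963% of the total TPM of the groove and 0.0966% of that of the submarginal zone. The inhibitors made up most of it, with 66 genes and 742 TPM in the groove against 674 TPM in the submarginal zone. The 33 caspases summed to 76.1 TPM in groove tissue and 82.6 TPM in the submarginal zone. The 10 programmed cell death proteins summed to 111 TPM in groove tissue and 161 TPM in the submarginal zone. The 3 Bcl-2 family and Bax inhibitor genes had 21.9 against 27.5 TPM, and 4 other genes with apoptosis in their names had 11.0 against 21.1 TPM, in the same order. The order of the total, of the caspase sums and of the Bcl-2 and Bax inhibitor sums turned after median-of-ratios scaling, described below. The log2 ratio of the total went from -0.0044 to 0.36 with that scaling. Genes with an informative product name summed to 298999 TPM in groove tissue and 422129 TPM in the submarginal zone, a log2 ratio of -0.50 as deposited. Most members were low. Of the 116, 22 reached 10 TPM in either region, 56 peaked between 1 and 10 TPM, and 38 stayed below 1 TPM in both. Low values were common in the whole series. Of 78453 genes with values, 5800 reached 10 TPM and 40744 stayed below 1 TPM in both regions. Of 13180 genes with an informative product name, 2625 and 3704 did so.

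**Figure D1:**
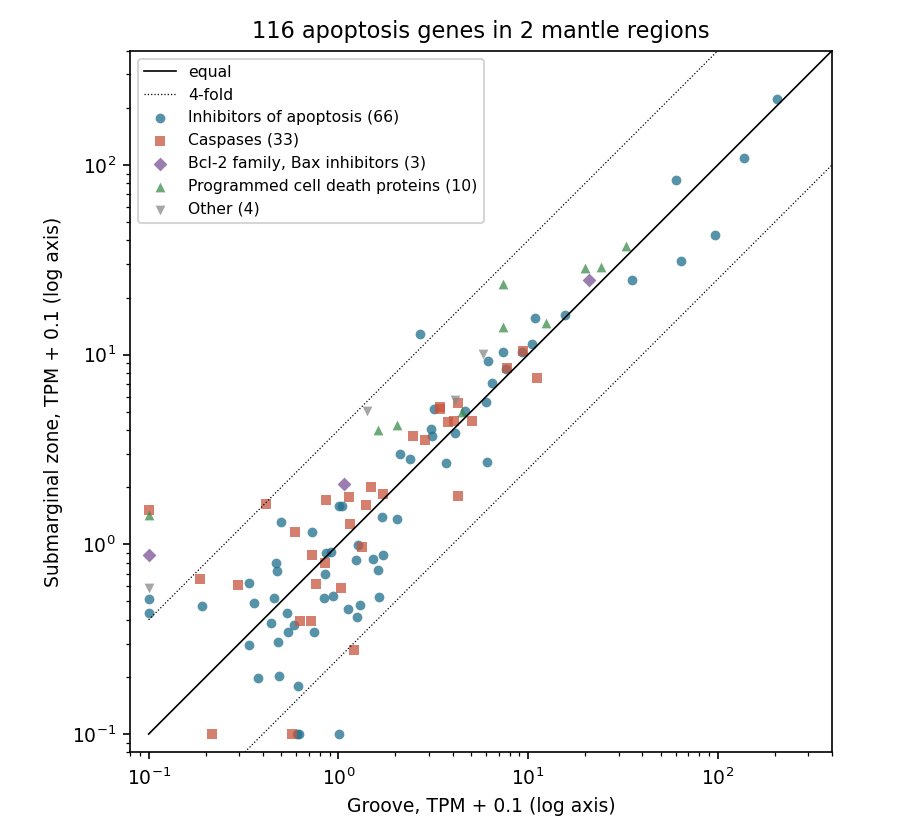
TPM in the groove (x axis) and in the submarginal zone (y axis) of the 116 apoptosis genes, each with 0.1 added, on log axes; each point is 1 gene, coloured by role, with 1 profile per region. The solid line marks equal values and the dotted lines 4-fold differences in the plotted values; of the members reaching 10 TPM only the BIRC5-named gene with 2.59 and 12.8 TPM lies past a dotted line, and the points at 0.1 on either axis are the 11 genes listed at 0 in one region.

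No apoptosis gene passed the rule for a 4-fold difference between the regions. A difference was counted when the log2 ratio of groove over submarginal zone, with 1 TPM added to both values, was 2 or more in size and the higher region reached 10 TPM. Of the 22 members reaching 10 TPM, 0 passed this rule toward the groove and 0 toward the submarginal zone. Of all 5800 genes at that level, 9.45% passed the rule toward the groove and 12.4% toward the submarginal zone. Among the 2625 of these with an informative product name, the shares were 4.42% and 8.11%. With a 2-fold threshold, 2 members passed toward the groove and 2 toward the submarginal zone, against 15.2% and 27.6% of all genes and 8.38% and 27% of product-named genes. The other 18 of the 22 (81.8%) were less than 2-fold apart, as were 57.2% of all genes reaching 10 TPM and 64.6% of those with product names.

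The scale of the ratios bears on every direction. Over the 5800 genes the median log2 ratio was -0.55, and most of them had less TPM in the groove. Scaling by the median of ratios raised that median by 0.34, and upper-quartile scaling raised it by 0.26. Of the 22 members, 5 were higher in the groove with TPM as deposited and 14 after either scaling, so 9 of them changed direction. Over all genes, median-of-ratios scaling gave 690 genes passing the 4-fold rule toward the groove and 569 toward the submarginal zone, in place of 548 and 719. Directions below are those of the deposited TPM, and a direction that turned under median-of-ratios scaling is marked as such.

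Among the 66 members whose TPM averaged at least 1 over both regions, the median log2 ratio was -0.18. It was -0.31 over 28590 genes of any kind at that level and -0.43 over 8483 product-named genes. After median-of-ratios scaling the members' median turned to 0.11, against -0.05 in all genes and -0.15 in product-named genes. Of the 66 members, 18 (27.3%) were higher in the groove, against 33.1% of all genes and 24.1% of product-named genes. With median-of-ratios scaling this became 40 of 66 (60.6%), against 47.1% of all genes and 39.6% of product-named genes. The members' share thus lay below that of all genes with TPM as deposited and above it after scaling. It lay above that of product-named genes both as deposited and after scaling. The middle 50% of the members' log2 ratios spanned 0.53, against 1.00 in all genes and 0.81 in product-named genes. The members' ratios ran between -1.94 and 1.17. The roles differed in their values. The median log2 ratio was -0.11 for 33 inhibitors, -0.13 for 19 caspases and -0.51 for 9 programmed cell death proteins. After median-of-ratios scaling the inhibitors turned to 0.21 and the caspases to 0.11, and the programmed cell death proteins had -0.16.

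**Figure D2:**
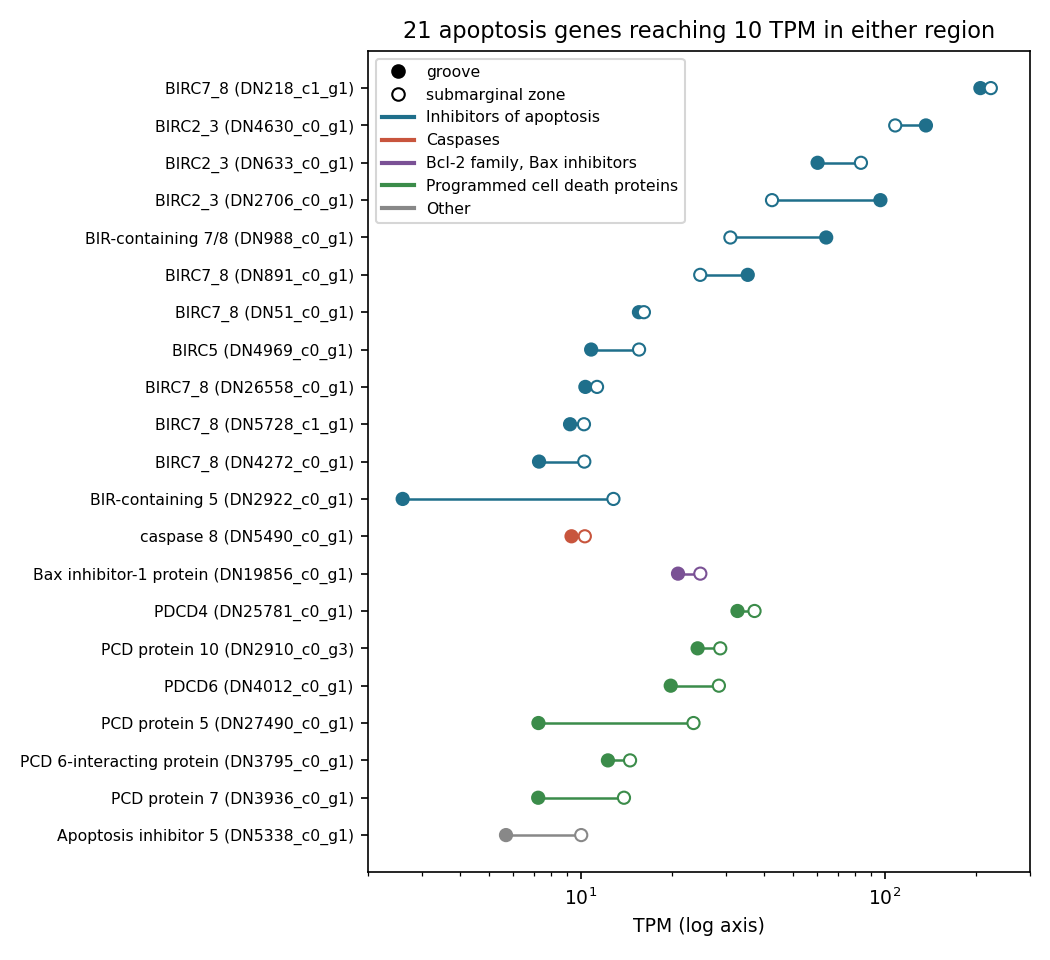
TPM (log axis) of 21 apoptosis genes that reached 10 TPM in either region, ordered by role and mean level; filled points are the groove, open points the submarginal zone, and colours mark roles. Lines join the regions of 1 gene, and the longest line is that of the baculoviral IAP repeat-containing protein 5 gene, with 2.59 TPM in groove tissue and 12.8 TPM in the submarginal zone.

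Inhibitors annotated BIRC7_8, a joint symbol for BIRC7 and BIRC8, were the most numerous, with 31 genes under this symbol or the corresponding full names. In humans BIRC7 is livin, an inhibitor of caspases, and BIRC8 is a relative of XIAP. One of them, TRINITY_DN218_c1_g1, was the most abundant apoptosis gene, with 206 TPM in groove tissue and 223 TPM in the submarginal zone. Among all genes it ranked 367 in groove tissue and 346 in submarginal tissue. It alone held 51.6% of the BIRC7/8 sum in groove tissue and 59.0% of it in submarginal tissue. Its log2 ratio was -0.11, and it turned positive after median-of-ratios scaling. The gene with the largest log2 ratio in this group among those with a mean of at least 1 TPM, TRINITY_DN988_c0_g1, had 64.2 TPM in groove tissue and 31.1 TPM in the submarginal zone, a log2 ratio of 1.02. TRINITY_DN891_c0_g1 was also higher in the groove, with 35.4 against 24.7 TPM.

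The other BIRC7_8 genes that reached 10 TPM lay close to equality or lower in the groove. TRINITY_DN51_c0_g1 had 15.5 TPM in groove tissue and 16.1 TPM in the submarginal zone. TRINITY_DN26558_c0_g1 had 10.4 TPM in the groove against 11.3 TPM, and TRINITY_DN5728_c1_g1 had 9.22 TPM in the groove against 10.2 TPM. These 3 genes turned to higher in the groove after median-of-ratios scaling. TRINITY_DN4272_c0_g1 had 7.29 TPM in groove tissue and 10.3 TPM in the submarginal zone, and kept its direction. The remaining 24 genes of this group stayed below 10 TPM and summed to 51.8 TPM in groove tissue and 51.6 TPM in the submarginal zone. Among them a pair assembled under 1 component, DN3182, was higher in the groove in both genes, with 5.98 against 2.61 TPM and 1.51 against 0.633 TPM. This pair was named after its values were seen. Over the whole group the sum was 400.2 TPM in groove tissue and 379 TPM in the submarginal zone.

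BIRC2/3 genes were fewer but also abundant, with 24 genes and sums of 320 TPM in groove tissue and 258 TPM in the submarginal zone. In mammals BIRC2 and BIRC3 are the cellular inhibitors of apoptosis, ubiquitin ligases that act at tumour necrosis factor receptors. The gene with the largest log2 ratio among the 66 members was in this group. TRINITY_DN2706_c0_g1 had 96.8 TPM in groove tissue and 42.6 TPM in the submarginal zone, a log2 ratio of 1.17. Most of the 61.8 TPM between the BIRC2/3 sums of the regions lay in this gene. TRINITY_DN4630_c0_g1 had 137 TPM in groove tissue and 108 TPM in the submarginal zone. TRINITY_DN633_c0_g1 was the other way round, with 60.1 TPM in groove tissue and 83.5 TPM in the submarginal zone. These 3 were the BIRC2/3 genes above 10 TPM. The other 21 lay between 0.09 and 5.87 TPM in groove tissue and between 0 and 5.50 TPM in the submarginal zone. Of them, 13 had more in the groove and 8 had more in the submarginal zone. Among the 8, TRINITY_DN11206_c0_g1 and TRINITY_DN11351_c0_g1 turned after median-of-ratios scaling. Among 11 BIRC2/3 genes with a mean of at least 1 TPM, 7 were higher in the groove, and the median log2 ratio was 0.18. At that level 33.1% of all genes and 24.1% of product-named genes were higher in the groove.

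BIRC5 genes were lower in the groove. At a mean of at least 1 TPM, 66.8% of all genes and 75.9% of product-named genes were also lower there. BIRC5, known as survivin in mammals, is needed for chromosome segregation in dividing cells as part of the chromosomal passenger complex. The gene named baculoviral IAP repeat-containing protein 5, TRINITY_DN2922_c0_g1, had 2.59 TPM in groove tissue and 12.8 TPM in the submarginal zone. Its log2 ratio of -1.94 was the lowest of the 66 members and lay just inside the 4-fold limit. The limit applies after adding 1 TPM. The plain ratio of its values was 4.94-fold in favour of the submarginal zone, and with a pseudocount of 0.1 TPM the log2 ratio was -2.26, past the limit. The gene annotated BIRC5, TRINITY_DN4969_c0_g1, had 10.8 TPM in groove tissue and 15.5 TPM in the submarginal zone, a log2 ratio of -0.49. The median over all genes reaching 10 TPM was -0.55. Both BIRC5 genes kept their direction after median-of-ratios scaling. The sum of the pair was 13.4 TPM in groove tissue and 28.4 TPM in the submarginal zone.

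Germ-cell markers were also lower in the groove, as was a pair of cyclins named after their values were seen. CCNA, which acts in the cell cycle, had 1.03 TPM in groove tissue and 52.4 TPM in the submarginal zone, and CCNB2 had 5.51 TPM in groove tissue and 42.4 TPM in the submarginal zone. No list of cell-cycle genes was counted. Of 8 germ-cell markers reaching 10 TPM, all had 4-fold or more in the submarginal zone. The list of 11 markers summed to 25.1 TPM in groove tissue and 484 TPM in the submarginal zone, with 2 listed at 0 in the groove. Their part in the values of BIRC5 and of the programmed cell death proteins was not tested. In bulk tissue, fewer cells of a type and less RNA per cell cannot be told apart.

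BIRC6 names an unusually large inhibitor, called Apollon in mammals, and here it was assembled as 6 genes. Their sums were nearly equal, with 7.11 TPM in groove tissue and 7.13 TPM in the submarginal zone, an order that turned after median-of-ratios scaling. TRINITY_DN7883_c0_g1 had 2.997 TPM in groove tissue and 3.95 TPM in the submarginal zone, and TRINITY_DN3425_c0_g1 had 2.29 against 2.73 TPM. Of this pair, named after its values were seen, TRINITY_DN3425_c0_g1 turned to higher in the groove after median-of-ratios scaling. The other 4 stayed below 1 TPM and were higher in the groove, and 3 of them share component DN3425 with TRINITY_DN3425_c0_g1. With TPM as deposited, pieces of 1 assembled component therefore did not always share a direction. After median-of-ratios scaling all 4 pieces of DN3425 were higher in the groove. Across all members, 12 components held several genes, 26 in all, and in 6 of the 12 the genes went both ways as deposited. The same count over the components of all genes was not made. The other 3 genes of this role carried the name inhibitor of apoptosis without a number and stayed below 1 TPM in both regions.

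**Figure D3:**
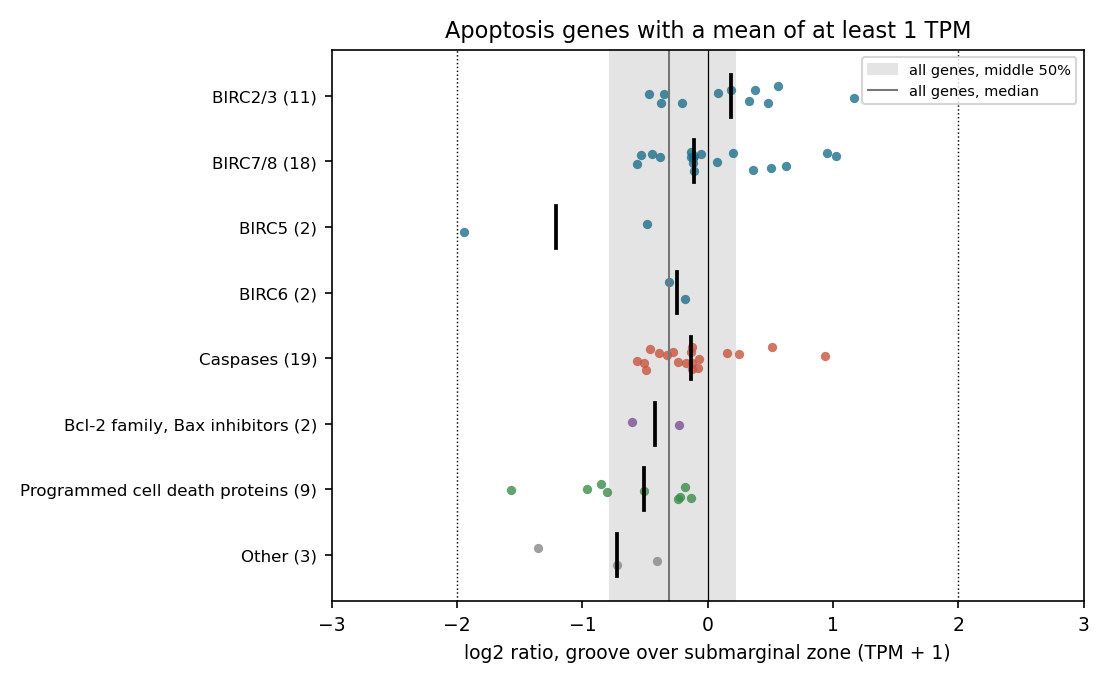
Log2 ratio of groove over submarginal zone (1 TPM added to both) for the 66 apoptosis genes with a mean of at least 1 TPM, by role, with the number of genes in brackets; each point is 1 gene and the short black bar the group's median. The grey band spans the middle 50% of all 28590 genes at that level with their median of -0.31, and dotted lines mark 4-fold; no point lies past a dotted line, and the BIRC5 pair and the programmed cell death proteins lie left of 0.

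Caspases were low and close to equal. Among them 2 of 33 reached 10 TPM. The caspase 8 gene TRINITY_DN5490_c0_g1 had 9.32 TPM in groove tissue and 10.3 TPM in the submarginal zone, and this order turned after median-of-ratios scaling. The caspase-8-like protein gene TRINITY_DN2826_c0_g1 had 4.16 TPM in groove tissue and 5.49 TPM in the submarginal zone.

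Initiator caspases were slightly lower in the groove with TPM as deposited and slightly higher there after median-of-ratios scaling. The 15 genes annotated as caspase 2 or caspase 8 summed to 28.6 TPM in groove tissue and 34.4 TPM in the submarginal zone, a log2 ratio of -0.27 that turned to 0.09 with that scaling. All 8 of them with a mean of at least 1 TPM were lower in the groove, with log2 ratios between -0.46 and -0.08. At that level 66.8% of all genes and 75.9% of product-named genes were also lower there. After median-of-ratios scaling 4 of the 8 turned. The median of the 8, -0.23, lay above the median of all genes at that level and turned to 0.03 after scaling. By number, the 7 caspase 2 genes summed to 10.3 TPM in groove tissue and 12.6 TPM in the submarginal zone, and the 8 caspase 8 genes to 18.3 against 21.7 TPM. Both orders turned after scaling.

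Among the remaining caspases, a caspase-14-like gene, TRINITY_DN3139_c0_g1, had 3.32 TPM in groove tissue and 5.08 TPM in the submarginal zone. It was named after its value was seen.

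Bcl-2 family genes were few. The Bcl-2 antagonist/killer protein gene, matching the pore-forming BAK of mammals, had 0.97 TPM in groove tissue and 1.99 TPM in the submarginal zone. Bax inhibitor-1, a membrane protein of the endoplasmic reticulum that protects cells from death, was more abundant. Its gene TRINITY_DN19856_c0_g1 had 20.9 TPM in groove tissue and 24.7 TPM in the submarginal zone, an order that turned after median-of-ratios scaling. A second entry, bax inhibitor 1-like, was listed at 0 in the groove and had 0.777 TPM in the submarginal zone.

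All 10 programmed cell death proteins had lower TPM in the groove, although 4 of the 9 with a mean of at least 1 TPM turned after median-of-ratios scaling. At that level 66.8% of all genes and 75.9% of product-named genes were lower in the groove as deposited. The programmed cell death proteins share a naming history, not a family, and several are known mainly for other roles. The largest difference was that of programmed cell death protein 5 (TRINITY_DN27490_c0_g1), which is linked to apoptosis in mammals. It had 7.25 TPM in groove tissue and 23.5 TPM in the submarginal zone, a log2 ratio of -1.57. Programmed cell death protein 7, a component of the minor spliceosome, had 7.24 TPM in groove tissue and 13.9 TPM in the submarginal zone. PDCD11, which acts in ribosome biogenesis and was named after its value was seen, had 1.52 against 3.92 TPM.

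The other programmed cell death genes above 10 TPM were less than 2-fold apart. PDCD4, an inhibitor of translation initiation, had 32.8 TPM in groove tissue and 37.3 TPM in the submarginal zone. Programmed cell death protein 10, a partner of germinal centre kinases, had 24.2 TPM in groove tissue and 28.8 TPM in the submarginal zone. PDCD6, a calcium-binding protein, had 19.8 TPM in groove tissue and 28.5 TPM in the submarginal zone, and its partner programmed cell death 6-interacting protein, known as ALIX in membrane remodelling, had 12.3 against 14.5 TPM. PDCD4, programmed cell death protein 10 and the 6-interacting protein turned to higher in the groove after median-of-ratios scaling, whereas PDCD6, programmed cell death protein 5 and programmed cell death protein 7 stayed lower.

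The 4 genes with apoptosis in other names were all lower in the groove. Of genes with a mean of at least 1 TPM, 66.8% of all and 75.9% of product-named genes were lower there. Apoptosis inhibitor 5, a nuclear protein that protects mammalian cells, had 5.67 TPM in groove tissue and 10.03 TPM in the submarginal zone. Apoptosis-inducing factor 1, a mitochondrial oxidoreductase, had 4.01 TPM in groove tissue and 5.65 TPM in the submarginal zone. O(6)-methylguanine-induced apoptosis 2, known in mammals also as a sperm-tail repeat protein, had 1.32 TPM in groove tissue and 4.93 TPM in the submarginal zone, a log2 ratio of -1.36. The cell division cycle and apoptosis regulator protein 1-like gene was listed at 0 in the groove and had 0.49 TPM in the submarginal zone. All kept their direction after median-of-ratios scaling where a ratio could be given.

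Of the 116 members, 11 were listed at 0 in one region, 6 of them in groove tissue and 5 in the submarginal zone. Of all 78453 genes with values, 7366 were at 0 in the groove alone and 8322 in the submarginal zone alone. Of 13180 product-named genes, 688 and 491 were. None of the 11 members reached 2 TPM in the other region. The highest was the CASP2 gene TRINITY_DN52250_c0_g1, named after its value was seen, at 0 in groove tissue and 1.42 TPM in the submarginal zone. In the opposite direction, the BIRC2_3 gene TRINITY_DN67691_c0_g1, also named after its value was seen, had 0.913 TPM in groove tissue and was at 0 in the submarginal zone.

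The wider cell death pathway was examined through 143 other genes chosen by name. They remained of 167 name matches after 24 had been dropped as wrong matches with their values seen. Of all genes reaching 10 TPM, 9.45% passed the 4-fold rule toward the groove and 12.4% toward the submarginal zone. Of product-named genes at that level, 4.42% and 8.11% did. None of the 12 pathway genes that reached 10 TPM was 4-fold apart. Before the dropping, 1 of 19 was 4-fold higher in the submarginal zone, a cytochrome c heme-lyase. Over the 86 with a mean of at least 1 TPM, the median log2 ratio was -0.08, against -0.31 in all genes and -0.43 in product-named genes at that level. Of the 86, 40 (46.5%) were higher in the groove, against 33.1% of all genes and 24.1% of product-named genes. The median of the 86 turned to 0.16 after median-of-ratios scaling. With that scaling 53 of 86 (61.6%) were higher in the groove, against 47.1% of all genes and 39.6% of product-named genes. Over the 102 name matches at that level before the dropping, the median was -0.18 with TPM as deposited and turned to 0.11 after scaling, and 42 were higher in the groove as deposited. Among ligands, receptors and adaptors, 9 of 14 genes at that level were higher in the groove, against 11 of 27 before the dropping. After scaling 12 of the 14 were higher there. The median log2 ratio was 0.07 for the 14 and -0.14 for the 27, and the latter turned to 0.10 after scaling. The death ligand named tumor necrosis factor ligand superfamily member 10, known as TRAIL, had 31.0 TPM in groove tissue and 25.6 TPM in the submarginal zone. TRAF6, an adaptor of immune receptors named after its value was seen, had 14.1 TPM in groove tissue and 10.6 TPM in the submarginal zone. An entry named TNF receptor-associated factor 6 went the other way, with 0.293 against 1.51 TPM.

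The p105 subunit of NF-kappa-B, a transcription factor of immune and survival signalling, had 16.6 TPM in groove tissue and 9.22 TPM in the submarginal zone, the highest mean in the group of 9 kinases and NF-kB genes. Of the 9, 4 were higher in the groove as deposited and 5 after median-of-ratios scaling. The median log2 ratio of the 9, -0.19, turned to 0.03 after that scaling. In that group a DAPK gene, a calcium-regulated death-associated kinase, had 4.42 TPM in groove tissue and 0.0333 TPM in the submarginal zone. This gene, TRINITY_DN2952_c0_g1, was named after its value was seen and stayed below the 10 TPM required for a count. Its log2 ratio was 2.39. Other entries of the group named death-associated protein kinase were lower in the groove, with 1.67 against 2.27 TPM and 1.40 against 1.90 TPM. The 7 entries named XIAP, a direct inhibitor of caspases in mammals that the name rule left out, summed to 22.8 TPM in groove tissue and 17.8 TPM in the submarginal zone. Of the 7, 6 were higher in the groove. Of genes with a mean of at least 1 TPM, 33.1% of all and 24.1% of product-named genes were higher there. Some XIAP entries lay below that level. The XIAP entries were named after their values were seen. BAG3, a chaperone partner with anti-apoptotic activity, had 97.0 TPM in groove tissue and 104 TPM in the submarginal zone, an order that turned after median-of-ratios scaling.

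**Figure D4:**
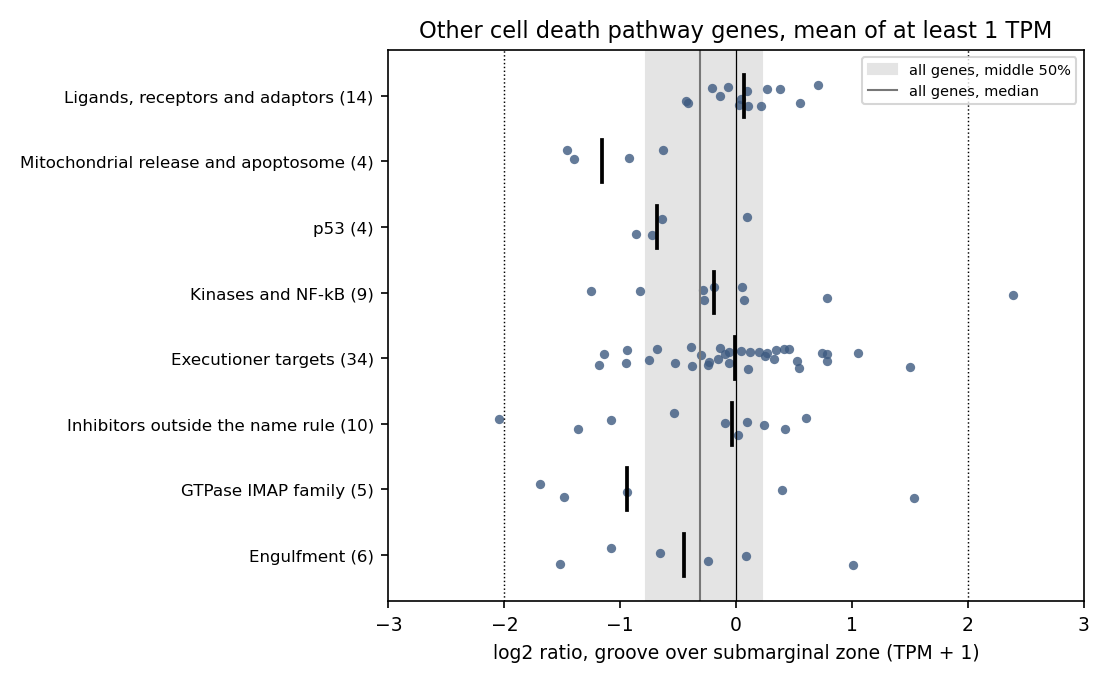
Log2 ratio of groove over submarginal zone (1 TPM added to both) for the 86 other pathway genes with a mean of at least 1 TPM, by function, with the number of genes in brackets; points, bars, band and dotted lines are as in the plot of ratios by role. All 4 mitochondrial genes lie left of 0, the 1 point right of the 4-fold line is the DAPK gene at 2.39, and the 1 point left of the opposite line is the DAD1 gene, listed at 0 in the groove with 3.13 TPM in the submarginal zone.

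Genes of mitochondrial release were all lower in the groove, 5 of 5, after 6 of 11 name matches had been dropped with their values seen. Of the 11, 8 were lower in the groove. The 5 were led by VDAC2, a channel of the outer mitochondrial membrane, with 269 TPM in groove tissue and 417 TPM in the submarginal zone. Over the 4 with a mean of at least 1 TPM, the median log2 ratio was -1.16. All 4 were lower in the groove, as were 66.8% of all genes and 75.9% of product-named genes at that level. Among targets and helpers of the executioner step, a gelsolin, an actin-severing protein that caspases cut in mammals, had 46.9 TPM in groove tissue and 61.8 TPM in the submarginal zone. Most of that group, 68 of 74 genes, carried PARP or poly ADP-ribose polymerase names, and which of them caspases cut was not tested. The 34 genes of the group with a mean of at least 1 TPM had a median log2 ratio of -0.01. It turned to 0.23 after median-of-ratios scaling.

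The p53 group held partners and targets of p53, led by TP53I3 with 7.82 TPM in groove tissue and 7.29 TPM in the submarginal zone. The other 3 of its 4 genes with a mean of at least 1 TPM were lower in the groove, the median log2 ratio was -0.68, and the 7 genes summed to 13.2 TPM in groove tissue and 18.1 TPM in the submarginal zone. GTPase IMAP genes, immune GTPases that are numerous in molluscs, stayed below 10 TPM, and the most abundant by mean had 2.82 TPM in groove tissue and 1.90 TPM in the submarginal zone. Of the 5 with a mean of at least 1 TPM, 3 were lower in the groove, with a median log2 ratio of -0.94, and all 8 summed to 8.56 TPM in groove tissue and 9.43 TPM in the submarginal zone, an order of sums that turned after median-of-ratios scaling. The engulfment receptor MEGF10_11 had 29.1 TPM in the groove against 13.9 TPM in its most abundant gene and 5.88 against 13.5 TPM in another, named after its value was seen. Of 6 engulfment genes with a mean of at least 1 TPM, 4 were lower in the groove, with a median log2 ratio of -0.45. After median-of-ratios scaling 3 of the 6 were higher in the groove, and the median was -0.14.

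Markers of other cell types were read because the samples were whole tissue. Haemocyte markers, the blood cell genes of bivalve immunity, summed to 1452 TPM in groove tissue and 2419 TPM in the submarginal zone over 16 genes, of which 0 were listed at 0 in either region. Cilia markers summed to 236 TPM in groove tissue and 819 TPM in the submarginal zone, and muscle markers to 4498 against 14397 TPM. Of 82 cilia markers 9 were listed at 0 in groove tissue alone and 6 in the submarginal zone alone, and of 24 muscle markers 7 and 4. Genes of shell-forming mantle epithelium were present in both regions, with sums of 10189 TPM in groove tissue and 574 TPM in the submarginal zone, and shell protein-3 alone had 9781 TPM in the groove. Without it the sums went the other way, with 408 TPM in groove tissue and 547 TPM in the submarginal zone. A carbonic anhydrase of that list had 0.133 TPM in groove tissue and 221 TPM in the submarginal zone. The part of cell composition in the values of the apoptosis genes was not tested.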

How the data were processed

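Bulk RNA of 2 mantle regions was sequenced. Libraries were made with a TruSeq RNA kit from DNase-treated total RNA, per the labels' protocols. fastp was among the tools used, per the submitters' processing notes. The assembler, the quantifier and their versions were not given in the sources used here. Values deposited by the authors are 1 TPM per gene and region, and the deposited TPM total was 999875 for the groove and 999820 for the submarginal zone. Values times 300 were whole numbers (within 0.002), as for a mean of 3 values with 2 decimals, and values were treated as the authors' means. The depth behind a TPM value is unknown, and no interval is given. Leaving out 5 genes with an empty cell, none of them a member, left 78453. Names are database matches of assembled pieces, so related genes may split reads and several pieces may stem from 1 gene. Product names counted as informative (13180 genes) when they said more than hypothetical, uncharacterised, unnamed or unknown.

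Log2 ratios, counts, medians and sums were computed from the deposited TPM with Python 3.11.15, numpy 2.4.6 and pandas 2.3.3, and plots were drawn with matplotlib 3.10.9. No test across genes was made. Members and lists were chosen with earlier results of these data known. The plain patterns of the pathway list matched 167 genes. After names and values had been seen, 24 were dropped as wrong matches (intraflagellar and trafficking proteins, for example). Of the plain list 19 genes reached 10 TPM, and 1 was 4-fold higher in the submarginal zone, a cytochrome c heme-lyase. Named genes were every member reaching 10 TPM, the 4 most abundant by mean of each role, members 4-fold apart and reaching 2 TPM, and, of each pathway group, the most abundant by mean and any gene 4-fold apart reaching 10 TPM. The alternatives tried were pseudocounts, minimums, thresholds and scalings, narrower members and sums over equal product names. Some caspase genes are not reported here.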

Additional observations from a re-analysis of the deposited data

How the results depend on the processing

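Each region had 1 profile of pooled animals, and neither replicate error nor depth is known. No paired analysis was possible because each region had 1 sample. The count of members at least 4-fold higher in the groove was 0 under every alternative tried except a 2-fold threshold, which gave 2. For the submarginal zone it was 0 except for 1 with a pseudocount of 0.1 TPM and 2 with the 2-fold threshold.

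The median log2 ratio of members was -0.18. It was -0.21 with a pseudocount of 0.1 and -0.10 with 5, -0.13 when rescaled without the 10 most abundant genes, -0.12 for narrow members, -0.23 over equal product names, -0.12 over all members above 0 and -0.14 for a mean of at least 5 TPM. It reversed to 0.11 with median-of-ratios and 0.0426 with upper-quartile scaling. The upward shift was fixed by construction, since both raise the groove's values. The sign changed because the members' median, -0.18, was smaller in size than that shift. With median-of-ratios scaling the median of all genes with a mean of at least 1 TPM stayed negative, at -0.05. That median had started lower, at -0.31.

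The log2 ratio of summed TPM, with median-of-ratios scaling, upper-quartile scaling and rescaling without the 10 most abundant genes in that order, was as follows. Inhibitors of apoptosis had 0.50, 0.42 and 0.19, against 0.14 as deposited. The ratio was 0.25 without the most abundant inhibitor gene, an alternative chosen after seeing the data. That gene had less TPM in the groove, so its removal raised the ratio. The inhibitor sums differed by 68.6 TPM as deposited. TRINITY_DN2706_c0_g1 (96.8 TPM in the groove against 42.6) and TRINITY_DN988_c0_g1 (64.2 against 31.1) held much of the groove's excess. Of the 66 inhibitors, 31 had more TPM in the submarginal zone. Sums without the genes furthest toward the groove were not computed. Caspases had 0.24, 0.16 and -0.0651, against -0.12. Bcl-2 family and Bax inhibitor genes had 0.0293, -0.0538 and -0.28, against -0.33. Programmed cell death proteins had -0.17, -0.25 and -0.48, against -0.53. The other names had -0.58, -0.66 and -0.89, against -0.94. Of 27 members named by the rule, 9 changed sign with median-of-ratios scaling and 0 with either pseudocount.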
